A study of Macaca fascicularis with 15 samples.

Results

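Keratins, cell junction genes and S100A genes were followed across the eye and retina of the cynomolgus monkey, Macaca fascicularis. The set held 54 of the 12995 genes analysed. It was chosen by gene name: keratins (KRT), desmogleins and desmocollins (DSG, DSC), desmoplakin, plakophilins, periplakin and envoplakin (DSP, PKP, PPL, EVPL), claudins (CLDN), occludin and zonula occludens proteins (OCLN, TJP), numbered cadherins (CDH) and S100A proteins, where the gene had a value in all 11 tables. KRT4, KRT12, S100A8, S100A9 and CDH5 were left out by the same rule. By role the set fell into 10 keratins, 3 desmosomal cadherins (all desmogleins), 5 desmosomal plaque genes, 15 claudins, 3 other tight junction genes, 13 cadherins and 5 S100A genes. KRT5, KRT19, DSC2, PKP2, CLDN5, CDH2 and CDH3 were not analysed here.

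The tables came from RNA sequencing of wild-type animals with no treatment named. They held 2 libraries of whole eye, 2 of whole retina, 4 of central retina and 3 of peripheral retina. Each sample was made from 1 eye, and for eye and retina the labels state biological replicates. They do not say whether central and peripheral samples came from the same animals, so p-values measure the spread between these samples. The labels list 4 more records, split evenly between eye and retina, that were not analysed here. Values are the authors' normalized signal with no stated unit, so levels are compared between libraries for 1 gene and not between genes.

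Keratins pair as a type I and a type II protein to form the intermediate filaments of epithelial cells. Desmogleins and desmocollins join neighbouring cells at desmosomes, and desmoplakin, plakophilins, periplakin and envoplakin tie the filaments to them. Claudins and occludin seal the space between cells at tight junctions, with zonula occludens proteins as their scaffold, and classical cadherins hold adherens junctions together. S100A proteins are small calcium-binding proteins found in many cell types. In the eye, stratified epithelium covers the cornea and conjunctiva, and the retinal pigment epithelium forms the outer blood-retina barrier with tight junctions. The neural retina holds adherens junctions between photoreceptors and Müller glia at the outer limiting membrane, and it has no stratified epithelium.

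Marker genes of other tissues were checked first, because the labels name tissues and not cells. The 8 of 15 listed corneal and conjunctival markers found in the tables summed to 514.1 and 734.7 in the whole eyes, 21.2 and 40.42 in the whole retinas, 7.09 to 9.35 in the central and 11.36 to 16.4 in the peripheral libraries. ALDH3A1 carried the sums of the whole eyes, at 668.35 and 452.22. EPCAM and GRHL2 of that list were at most 0.1 in every retinal library, and TP63 was so in every regional one. OVOL1 went another way, at 1.1 and 0.65 in whole eyes, 0.15 and 0.26 in whole retinas and 0.31 to 1.12 in regional libraries. EHF overlapped between whole retina (5.57 and 4.29) and peripheral retina (5.29 to 5.94), under the 24.86 and 18.56 of the eyes. The 8 of 10 pigment epithelium markers summed to 2541 and 2598 in whole eyes and to 2184 and 2321 in whole retinas, against 66.41 to 163.8 in the central libraries and 345.1 to 522.6 in the peripheral ones. Markers of lens (6 of 8) summed to 2728 and 2999 in whole eyes, 366.2 and 528.9 in whole retinas and at most 4.83 in any regional library, and LIM2 and MIP were at 0 in every central one. Muscle markers (4 of 8) summed to 508.8 to 1124 in whole eyes, 1022 to 1261 in whole retinas and at most 13.41 in regional libraries, a sum carried by the smooth muscle genes ACTA2 and MYH11. The skeletal muscle genes went another way: ACTA1 was at 39.77 and 8.52 in whole eyes, 0.53 and 0.58 in whole retinas and 1.49 to 3.42 in regional libraries, and MYH2 was at most 0.19 in any retinal library. The libraries labelled whole retina therefore carried RNA of pigment epithelium, smooth muscle and lens markers that the regional libraries carried at far lower levels. Photoreceptor markers (8 of 8) were high in all 11 libraries, from 11430 to 26330 in sum. In whole tissue, fewer cells of a type and less RNA per cell cannot be told apart.

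**Figure D1:**
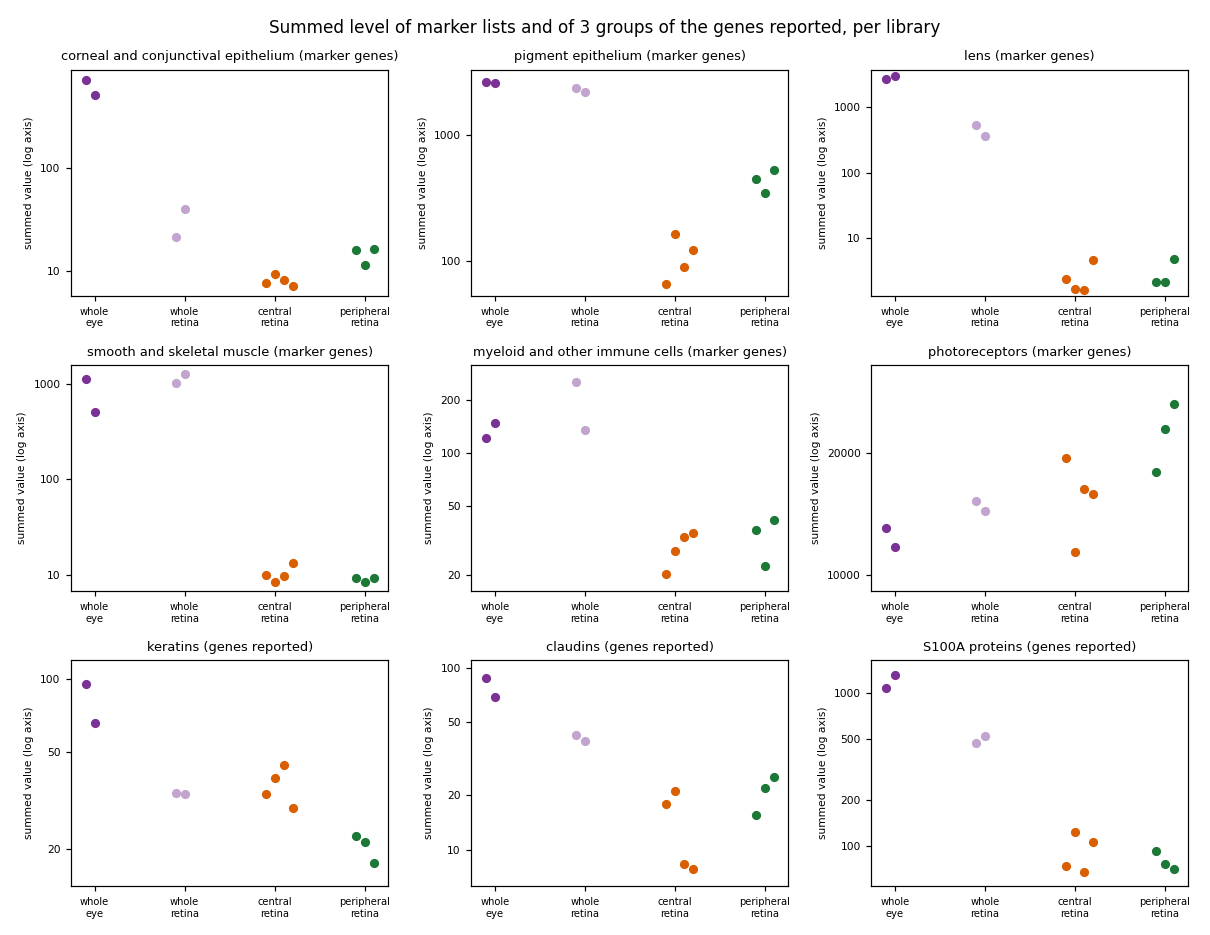
Summed deposited value (log axis, no unit stated) in each of the 11 libraries, grouped by tissue, for 6 marker lists and for the keratins, claudins and S100A genes of the set; each point is 1 library. The sums for pigment epithelium and for muscle, the latter carried by ACTA2 and MYH11, are lower in every regional library (at most 522.6 and 13.41) than in any whole-tissue one, and the S100A sum runs from 1089 and 1326 in whole eyes to 67.85 to 123 in central retina.

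Some values rest on names that can be mistaken for one another. In some libraries the values of genes whose names share a start appear exchanged: TPPP2, a gene outside the set, was at 22.01, 22.19, 12 and 10.02 in central retina 3 and 4 and peripheral retina 1 and 3 and at most 0.12 in the other libraries, and TPPP3 was at most 0.38 in those 4 and between 29.04 and 71.18 in the others. A name was marked where it is the start of another gene's full name or begins with another gene's full name, as with CDH1 and CDH11. Of the 54 genes, 18 are so marked: CDH1, CDH11, CDH12, CDH13, CDH18, CDH19, CLDN1, CLDN10, CLDN11, CLDN12, CLDN15, CLDN17, CLDN19, KRT8, KRT80, KRT83, S100A1 and S100A10. Names alike only in a family stem, such as CLDN3 and CLDN4, were not marked and are counted below as sharing no start. CLDN12, singled out after its values were seen, shows a pattern that splits groups. It was at 13.1 and 11.9 in the whole eyes, 11.4 and 1.85 in the whole retinas, 9.41, 11.5, 0.13 and 0.06 in central retina, and 0.23, 10.8 and 9.82 in peripheral retina. Libraries of 1 tissue thus lay at both ends of its range, and central, peripheral and whole retina overlapped. The whole eyes lay just above every other library, and no comparison passed the test. Whether values were exchanged for CLDN12, for any other of the 18 or for an unmarked gene was not tested.

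**Figure D2:**
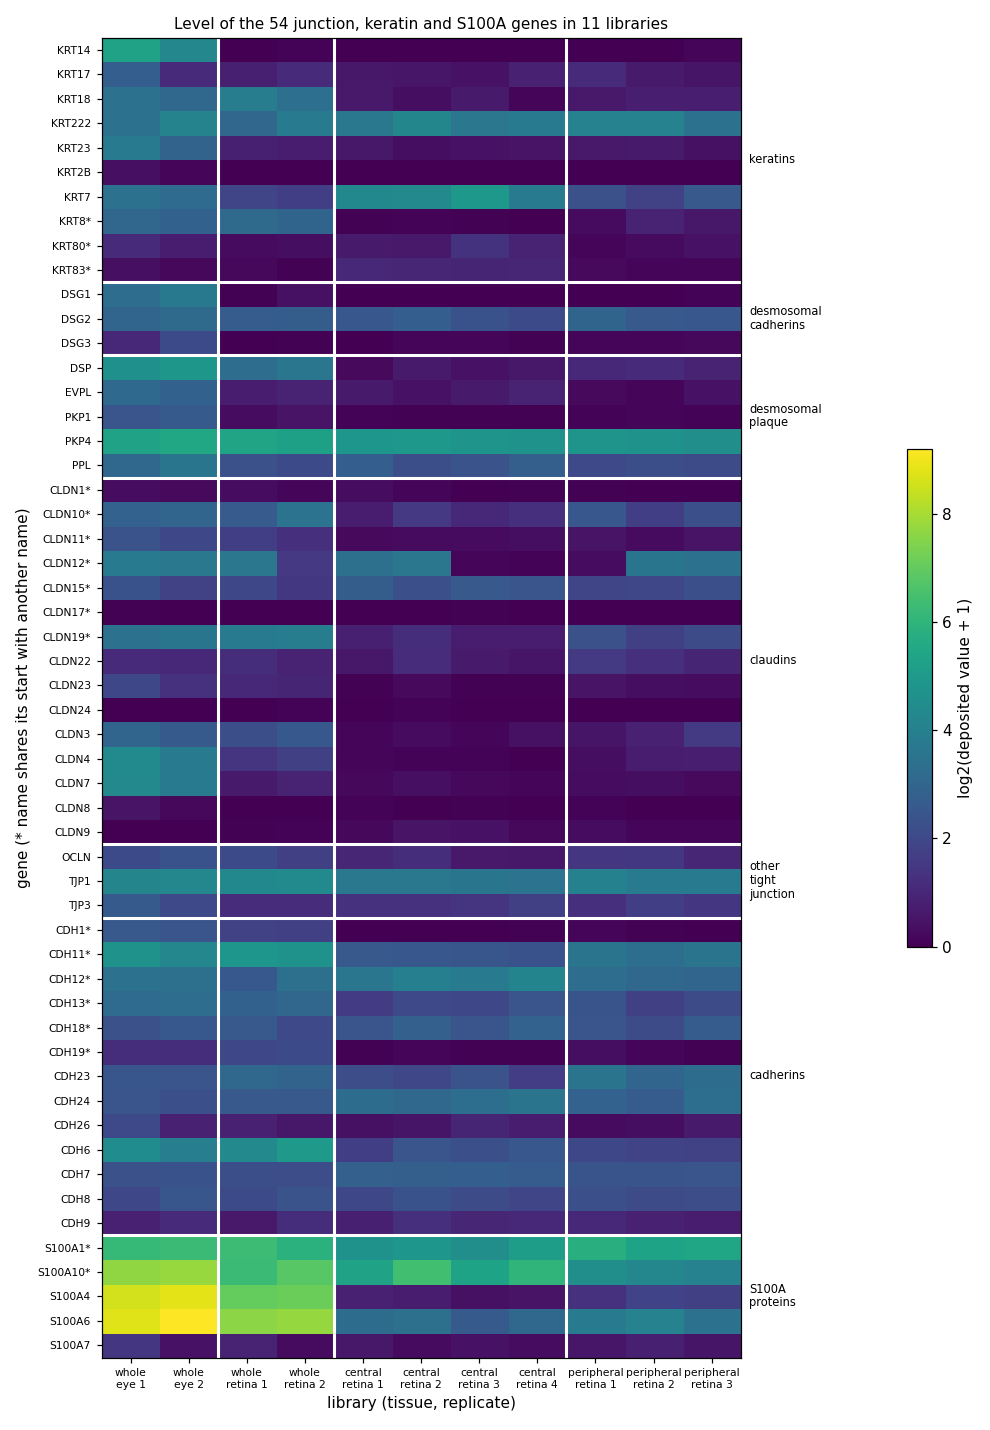
Level of each of the 54 genes as log2 of the deposited value plus 1 (colour) in the 11 libraries (columns, grouped by tissue), in rows ordered by role; an asterisk marks the 18 genes whose name shares its start with another. Most rows are brightest at the left, in whole eye, and KRT7, CDH7 and CDH24 are brightest in central retina.

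Of the 54 genes, 33 had their highest group mean in whole eye, 9 in whole retina, 9 in central and 3 in peripheral retina. A gene was tested where its mean reached 1 in at least 1 group, which 46 of the 54 did. Of those, 22 reached it in every group, 13 in 2 or 3 groups, and 11 in whole eye alone: CDH26, CLDN7, CLDN23, DSG1, DSG3, EVPL, KRT14, KRT17, KRT23, PKP1 and S100A7. These 11 entered through the tissue where they were high, so counts that include them describe the set and carry no further weight. CDH1, CDH19, CLDN4, CLDN11, KRT8 and KRT18 reached a mean of 1 in whole eye and whole retina alone. The same limit holds for them where regional retina is compared with these tissues. All differences below are differences of mean log2(value + 1), which understate the change of genes at low levels. A gene is called higher or lower where limma's p, adjusted by Benjamini and Hochberg over all 11933 genes tested, is under 0.05. Counts at an unadjusted p under 0.05 come without a share over all tested genes and are not read as results.

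The first comparison asked which junction genes of the whole eye are low in the isolated whole retina. KRT14, DSG1, DSG3, EVPL and PKP1, all known from stratified epithelium, and the epithelial claudins CLDN4 and CLDN7 were lower in whole retina, with values near 0 or several times under those of the eyes. All of these but CLDN4 entered the test through whole eye alone, as did KRT23. Their p-values below describe them and carry no further weight. DSP and the S100A genes S100A4 and S100A6 were lower too, but stayed well above 0. The simple-epithelium keratins KRT8 and KRT18, the scaffold TJP1 and the plakophilin PKP4 did not pass. In all, 15 of the 46 tested genes were lower in whole retina and 1 was higher, where 2.27% of all tested genes were called in either direction, 2.1% lower and 0.168% higher. By library ranges alone, 24 of the 46 lay lower and 5 higher in whole retina without overlap, where 17.6% and 14% of all tested genes did. The median difference was -0.42 over the 46 genes and -0.01 over all tested genes. Of the 15, 7 are among the 11 genes that entered through whole eye alone, and 4 are among the 22 that reached a mean of 1 in every group. Among the 32 tested genes whose names share no start, 14 were lower and 0 higher by limma's adjusted p (17 lower and 1 higher at an unadjusted p under 0.05).

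Keratins come first. KRT14, a type I keratin of basal cells in stratified epithelium, was at 38.1 and 18.3 in the whole eyes, 0.02 and 0.06 in the whole retinas, 0, 0, 0 and 0.01 in central retina and 0, 0 and 0.11 in peripheral retina. Every whole eye library lay above every other, and its whole retina minus whole eye difference was -4.72 (SE 0.253, limma adjusted p = 8.26e-07). KRT23 (9.76 ± 4.53 in whole eye and 0.69 ± 0.099 in whole retina, SD, n = 2 each) and KRT7 (9.04 ± 0.891 and 2.52 ± 0.375) were also lower. KRT17 did not pass, at 5.65 and 1.17 in the eyes and 0.75 and 1.20 in the whole retinas, with 1 eye library inside the retinal range. KRT8 and KRT18 are the type II and type I partners of simple epithelium, and the 2 genes neighbour each other in the RefSeq annotation of assembly T2T-MFA8v1.1. KRT8 was at 7.13 and 6.30 in the whole eyes and 8.02 and 6.75 in the whole retinas. KRT18 was at 10.2 and 7.48, and at 14.0 and 9.28. Eye and retina overlapped for both, with differences of 0.12 (SE 0.194, limma adjusted p = 0.858) and 0.35 (SE 0.234, limma adjusted p = 0.648). In this comparison 3 of the 7 tested keratins were lower and 4 did not pass.

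Of the 3 desmogleins, 2 were lower in whole retina. DSG1, a desmoglein of the upper layers of stratified epithelium, was at 8.72 and 12.3 in the whole eyes, 0.04 and 0.34 in the whole retinas, 0, 0, 0 and 0.01 in central and 0, 0 and 0.06 in peripheral retina. No retinal library reached the eye's range, and the difference was -3.27 (SE 0.176, limma adjusted p = 8.26e-07). DSG3, its basal-layer relative, fell by 1.53 from 2.12 ± 1.45 to 0.02 ± 0.0283 (SD, n = 2 each). DSG2, the desmoglein of simple epithelium and heart, was at 7.00 and 7.97 in the whole eyes, 5.35 and 5.55 in the whole retinas, 4.67, 5.76, 4.03 and 3.23 in central and 6.80, 4.94 and 4.67 in peripheral retina. Its eye libraries were above all others, but the difference between whole tissues did not pass (-0.39, SE 0.221, limma adjusted p = 0.577).

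In the desmosomal plaque, 4 of 5 genes were lower in whole retina. DSP, the plaque protein that binds the filaments, was at 23.3 and 28.3 in the whole eyes and 8.76 and 11.1 in the whole retinas, a difference of -1.30 (SE 0.185, limma adjusted p = 0.00199) without overlap. EVPL, a plakin of the cornified envelope, was at 7.89 and 6.29 against 0.63 and 0.87, and fell by 2.21 (limma adjusted p = 1.72e-05). PKP1, the plakophilin of stratified epithelium, was at 4.34 and 5.13 against 0.25 and 0.40. Both had eye libraries several times above any retinal library, and PKP1 fell by 2.11 (limma adjusted p = 2.15e-06). PPL, the partner of envoplakin, was at 7.58 and 11.0 against 3.89 and 3.24, and fell by 1.15 (limma adjusted p = 0.0211). PKP4, a plakophilin relative present at adherens junctions of many cells, was at 38.1 and 43.8 against 40.1 and 36.7, so the groups overlapped (-0.09, SE 0.131, limma adjusted p = 0.838).

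Among tight junction genes, 2 of the 10 tested claudins and TJP3 were lower in whole retina. CLDN7 was at 19.0 and 13.0 in the whole eyes, 0.57 and 0.90 in the whole retinas, 0.16, 0.30, 0.15 and 0.13 in central and 0.24, 0.28 and 0.18 in peripheral retina. CLDN4 was at 19.5 and 13.2, at 1.65 and 2.36, at 0.08, 0.07, 0.06 and 0.01, and at 0.27, 0.67 and 0.71 in the same order. Both are claudins of many epithelia, and both had eye libraries far above the rest. CLDN7 fell by 3.27 (limma adjusted p = 8.75e-07) and CLDN4 by 2.51 (limma adjusted p = 2.12e-05) between the whole tissues. TJP3 went from 4.14 ± 1.44 to 1.26 ± 0.00707 (SD, n = 2 each). TJP1, the scaffold ZO-1, was at 17.4 and 18.3 in the whole eyes and 18.4 and 19.7 in the whole retinas, with a difference of 0.09 that did not pass (SE 0.134, limma adjusted p = 0.837). OCLN, occludin, was at 3.19 and 3.95 against 3.16 and 2.38, and did not pass either (limma adjusted p = 0.729). CLDN11, a claudin of myelin and other tissues, was at 4.09 and 2.96 against 2.27 and 1.37, without overlap and without passing (limma adjusted p = 0.111).

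Of the 13 cadherins, 1 was lower in whole retina, 1 higher and 11 did not pass. CDH1, E-cadherin, was at 4.96 and 4.39 in the whole eyes and 2.54 and 2.33 in the whole retinas, and fell by 0.72 (SE 0.132, limma adjusted p = 0.0119). CDH19, a cadherin known from Schwann cell precursors, was at 1.33 and 1.32 against 2.95 and 3.14, higher by 0.80 (SE 0.141, limma adjusted p = 0.00927). Neither pair of groups overlapped, and both names are among the 18 with a shared start. Of the S100A genes, S100A4 and S100A6 were lower in whole retina and 3 did not pass. S100A4, a calcium-binding protein of fibroblasts and other migratory cells, was at 379.5 and 453 in the whole eyes and 129 and 140.4 in the whole retinas, a 3.09-fold ratio of means (difference -1.62, SE 0.201, limma adjusted p = 0.000631). S100A6, calcyclin, was at 432 and 577 against 193 and 214 (-1.29, SE 0.264, limma adjusted p = 0.0239). S100A10, the annexin A2 partner, was at 205 and 219 against 76.1 and 112, and did not pass (-1.19, limma adjusted p = 0.145) although its groups did not overlap. Corneal, conjunctival and lens markers were lower in whole retina as well, by 5 of 5 and 6 of 6 tested genes. Of all tested genes 2.1% were. The markers SFN and TP63 reached a mean of 1 in whole eye alone and entered the test through it. The part of the marker genes in these differences was not tested.

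With any 1 library left out, 11 of the 15 lower calls and the higher one still passed. KRT7 did not pass without any 1 of the 4 whole-tissue libraries (highest limma adjusted p = 0.142), PPL without whole eye 2, whole retina 1 or whole retina 2 (0.191), S100A6 without whole eye 2 or whole retina 1 (0.212), and TJP3 without whole eye 1 or whole retina 1 (0.118). DSG3, DSP, CDH1 and CDH19 kept their calls there but lost it under other settings: DSP, CDH1 and CDH19 with a pseudocount of 0.1, and DSG3 with quantile normalization. With only the eye and whole retina libraries in the fit, 11 of the 15 lower calls were left, without CDH1, DSG3, PPL and TJP3, and CDH19 did not pass.

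**Figure D3:**
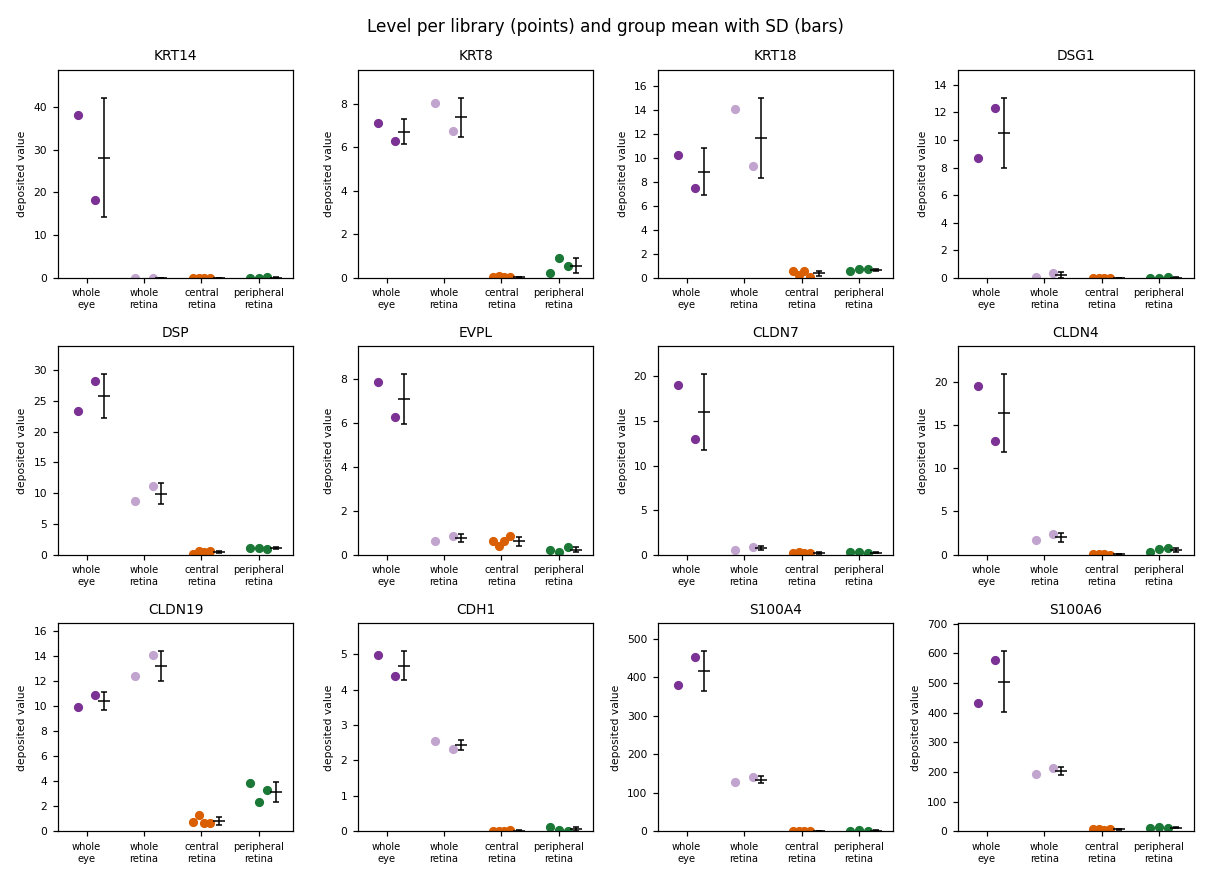
Deposited value (linear axis from 0, no unit stated) of 12 genes in each library, by tissue: coloured points are libraries, the black dash and bar are the group mean and SD (n = 2 whole eye, 2 whole retina, 4 central and 3 peripheral retina). KRT14, DSG1, EVPL, CLDN7 and CLDN4 stand high in whole eye alone, whereas KRT8, KRT18 and CLDN19 reach or pass the range of whole eye in whole retina and are low in the regional libraries.

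The second comparison set the regional retina, as the average of the central and peripheral group means, against each whole tissue. KRT8, KRT18, DSP, CDH1, CLDN19, CDH6, S100A4 and S100A6, all present in whole retina, were at a small fraction of that level in central and peripheral retina. S100A4 had the largest difference of the 46 genes tested, from over 100 in whole retina to under 3 in every regional library. Against whole retina 23 of the 46 tested genes were lower in the regional libraries and 4 higher, where 44.2% of all tested genes were called, 28.4% lower and 15.8% higher. Against whole eye 33 were lower and 2 higher, where 50.7% of all tested genes were called, 32.5% lower and 18.2% higher. Without overlap of libraries, 23 lay lower and 3 higher than whole retina (27.9% and 13.9% of all tested genes), and 33 lower and 2 higher than whole eye (32.4% and 16.1%). The medians of the 46 genes were -0.41 and -1.27, beside -0.07 and -0.14 for all tested genes. These comparisons share the regional libraries with each other and the whole-tissue libraries with the first one, so their calls are not independent.

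How values are scaled matters here. Quantile normalization moved the median of all genes by 0.22 against whole retina and by 0.26 against whole eye, so differences of about that size are not read. With it, the split became 19 lower and 9 higher against whole retina (32.1% of calls higher, up from 14.8%) and 29 lower and 6 higher against whole eye (17.1%, up from 5.71%). CLDN7 and PKP1, both lower against whole retina as deposited (-0.52 and -0.32), turned to 0.03 and 0.05. Of the 22 genes that reached a mean of 1 in every group, 9 were lower and 4 higher against whole retina as deposited. Of all tested genes 28.4% and 15.8% were. Against whole eye 12 of the 22 were lower and 2 higher, beside 32.5% and 18.2% of all tested genes.

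The keratins KRT8 and KRT18 showed the contrast plainly. KRT8 was at 0.03, 0.06, 0.04 and 0.02 in central and 0.21, 0.90 and 0.52 in peripheral retina, where both whole tissues lay between 6.30 and 8.02. KRT18 was at 0.53, 0.26, 0.57 and 0.08 in central and 0.55, 0.72 and 0.72 in peripheral retina, where both whole tissues lay between 7.48 and 14.0. No regional library came near a whole-tissue library for either gene. The difference from whole retina was -2.74 for KRT8 (SE 0.156, limma adjusted p = 1.74e-07) and -3.06 for KRT18 (SE 0.188, limma adjusted p = 2.98e-07). Both genes entered the test through the whole tissues alone, so these p-values describe them and carry no further weight. KRT14 and KRT23, already low in whole retina, did not differ from it past the test (limma adjusted p = 0.924 and 0.36). KRT7 went the other way: it was higher in regional than in whole retina by 1.46 (SE 0.252, limma adjusted p = 0.00073), with the library values given below. Its peripheral libraries (2.49 to 4.90) overlapped the whole retinas (2.78 and 2.25), and its central ones (12.92 to 28.77) lay above both. KRT222, a keratin-like gene, had means between 10.2 and 13.9 in all 4 groups and passed in no comparison.

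Of the desmosomal genes, DSP was at 0.18, 0.57, 0.38 and 0.52 in central and 1.08, 1.13 and 0.84 in peripheral retina, far under the 8.76 and 11.1 of the whole retinas (-2.69, SE 0.149, limma adjusted p = 1.43e-07). PKP4 was at 27.2, 29.2, 25.9 and 25.6 in central and 26.3, 24.8 and 22.6 in peripheral retina. Every regional library was under every whole-tissue library, and the difference from whole retina was small (-0.56, SE 0.105, limma adjusted p = 0.00131). PPL stayed between 3.09 and 5.91 in the regional libraries and did not differ from whole retina past the test (0.13, SE 0.185, limma adjusted p = 0.609). EVPL was at 0.60, 0.38, 0.60 and 0.87 in central and 0.19, 0.12 and 0.35 in peripheral retina, and PKP1 was at most 0.09 in any regional library.

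Claudins were lower in regional than in whole retina in 7 of 10 tested genes and higher in 1, CLDN15. Of all tested genes 28.4% were lower and 15.8% higher. CLDN7 and CLDN23 entered the test through whole eye alone, and CLDN4 and CLDN11 through whole eye and whole retina alone. With quantile normalization CLDN7 and CLDN23 were not called lower. CLDN19, a claudin known from the pigment epithelium and from kidney, was at 9.92 and 10.9 in the whole eyes, 12.4 and 14.1 in the whole retinas, 0.74, 1.28, 0.68 and 0.67 in central and 3.88, 2.32 and 3.33 in peripheral retina. Whole tissues, peripheral and central retina formed 3 ranges without overlap, and the regional minus whole retina difference was -2.37 (SE 0.169, limma adjusted p = 8.99e-07). CLDN3 (4.18 ± 0.799 in whole retina, SD, n = 2) and CLDN10 (7.74 ± 3.60) were lower as well, with differences of -1.76 and -1.41, and CLDN11 fell by 1.14 to at most 0.40 in any regional library. CLDN4, CLDN7 and CLDN23 were lower from whole retina means under 3, and CLDN15 was higher in the regional libraries, with means of 2.40 ± 0.799 in whole retina, 4.67 ± 0.769 in central and 3.17 ± 0.551 in peripheral retina (SD, n = 2, 4 and 3), where whole and peripheral retina overlapped. TJP1 was at 11.8, 11.9, 10.8 and 10.2 in central and 15.3, 13.1 and 12.9 in peripheral retina, lower than in whole retina by a difference of -0.58 (SE 0.108, limma adjusted p = 0.00116). OCLN was at 0.97, 1.29, 0.54 and 0.51 in central and 1.74, 1.78 and 0.97 in peripheral retina, with a difference of -0.83 from whole retina (limma adjusted p = 0.00509).

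Cadherins divided by gene. CDH1 was at 0, 0, 0.02 and 0.03 in central and 0.13, 0.04 and 0.02 in peripheral retina, and CDH19 at 0.05, 0.10, 0.03 and 0.03 and at 0.26, 0.08 and 0.03. Neither had a regional library near the whole-tissue range, with differences from whole retina of -1.73 (limma adjusted p = 2.92e-07) and -1.90 (limma adjusted p = 2.32e-07). CDH1 and CDH19 entered the test through the whole tissues alone, so these p-values describe them and carry no further weight. CDH6, CDH11 and CDH13 were also lower, from means of 24.7 ± 7.79, 26.2 ± 2.17 and 6.66 ± 0.636 in whole retina (SD, n = 2 each) to 3.76 ± 1.08, 4.52 ± 0.427 and 3.15 ± 0.909 in central retina (SD, n = 4 each). In peripheral retina their means were 2.76 ± 0.247, 10.1 ± 1.01 and 3.28 ± 0.930 (SD, n = 3 each). CDH24 was at 4.39 and 3.73 in the whole eyes, 4.87 and 4.87 in the whole retinas, 8.64, 7.34, 8.94 and 10.6 in central and 6.47, 5.41 and 8.90 in peripheral retina. All its regional libraries lay above all whole-tissue ones, and it was higher by 0.58 against whole retina (limma adjusted p = 0.0169) and by 0.79 against whole eye (limma adjusted p = 0.00249). CDH8 and CDH9 passed in no comparison, with group means of 3.27 to 3.75 and of 0.81 to 1.03.

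S100A4 was at 0.80, 0.62, 0.34 and 0.41 in central and 1.51, 2.64 and 2.31 in peripheral retina. Whole retina was 99.82-fold and whole eye 308.7-fold above the regional mean, and the differences were -5.95 (SE 0.162, limma adjusted p = 1.29e-09) and -7.57 (SE 0.162, limma adjusted p = 1.07e-10). S100A6 was at 8.44, 9.61, 5.02 and 7.72 in central and 13.1, 15.8 and 10.1 in peripheral retina, 19.64-fold under whole retina (-4.23, SE 0.212, limma adjusted p = 7.54e-08). S100A1, an S100 protein of muscle and neurons, was also lower: it was at 70.6 and 76.5 in the whole eyes, 77.9 and 58.0 in the whole retinas, 25.4, 27.8, 22.2 and 34.0 in central and 54.9, 38.9 and 41.6 in peripheral retina (regional minus whole retina -0.93, limma adjusted p = 0.00133). S100A7 passed in no comparison. All 8 pigment epithelium and all 6 lens markers tested were lower in regional than in whole retina too. Of the 4 muscle markers 2 were lower (ACTA2 and MYH11), ACTA1 was higher (1.12, limma adjusted p = 0.0431) and MYH2 did not pass. The 4 of 8 myeloid markers were lower as well, and summed to 135.3 and 255.4 in whole retina and 20.24 to 41.55 in the regional libraries. Of the 8 photoreceptor markers 4 were higher in regional than in whole retina and 0 lower. Of all tested genes 28.4% were lower and 15.8% higher. The part of these markers in the differences was not tested.

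With any 1 library left out, 20 of the 23 lower calls against whole retina and 30 of the 33 against whole eye still passed. Against whole retina CDH24, CDH7 and CLDN15 were not called higher without whole retina 2 (CDH24 also without whole retina 1, CLDN15 also without central retina 1 or 3 or peripheral retina 2 or 3), which left 2 genes higher, KRT7 and, newly past the test, CDH12. CLDN7 did not pass without whole retina 2, OCLN without whole retina 1, and PKP1 without any 1 of 5 libraries, with highest limma adjusted p of 0.129, 0.0585 and 0.121. Against whole eye DSG2 did not pass without either eye, and KRT17 did not without whole eye 1, where CDH26 was no longer tested. CDH7 against whole eye did not pass without any 1 of 7 libraries, which left 1 gene higher.

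**Figure D4:**
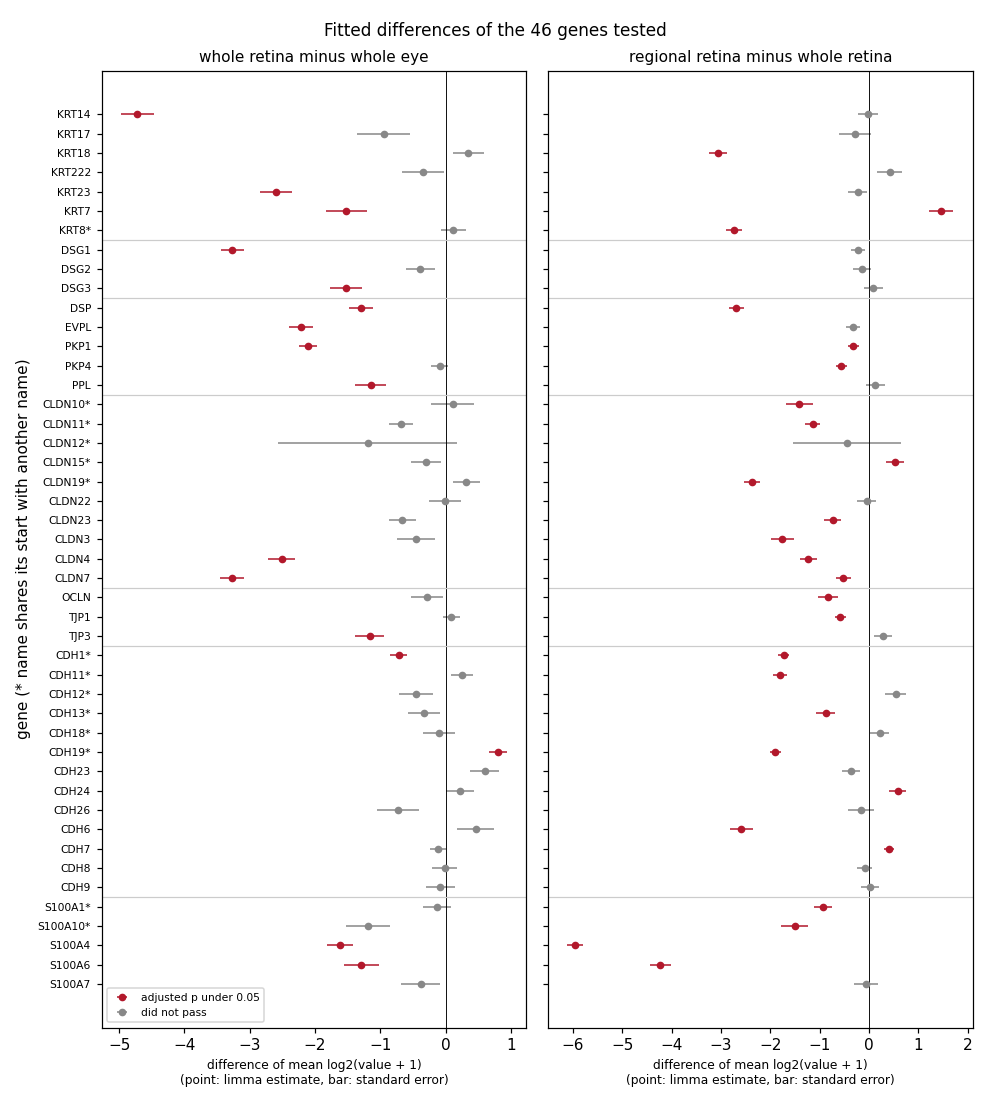
Fitted difference of mean log2(value + 1) with its standard error for the 46 genes tested, whole retina minus whole eye at the left and regional minus whole retina at the right, in rows ordered by role; red points have a limma adjusted p under 0.05, and an asterisk marks names that share their start with another. KRT14, DSG1, CLDN7 and CLDN4 are far to the left in the first panel, and S100A4, S100A6, KRT18, KRT8 and DSP in the second.

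The third comparison, central with peripheral retina, asked which of these genes differ within the retina. KRT7 and S100A10 were the clearest genes higher in central retina, and CDH11, CDH23, CLDN19 and S100A4 the clearest higher in peripheral retina. In all 4 of the 46 tested genes were higher in central retina and 11 lower, where 21.3% of all tested genes were called, 12.5% higher and 8.76% lower. In 13 genes all central libraries lay under all peripheral ones and in 5 above, where 15.6% and 19% of all tested genes did. The median difference was -0.09 over the 46 genes and -0.01 over all tested genes. The 15 called genes include 9 of the 22 with a mean of at least 1 in every group, 4 higher and 5 lower, and 0 of the 11 that entered through whole eye alone. Among the 32 tested genes whose names share no start, 2 were higher and 6 lower.

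KRT7, a type II keratin of simple and ductal epithelium, was at 18.6, 19.0, 28.8 and 12.9 in central and 3.84, 2.49 and 4.90 in peripheral retina, beside 9.67 and 8.41 in the whole eyes and 2.78 and 2.25 in the whole retinas. All 4 central libraries lay above every other library. The central mean was 5.29-fold the peripheral one, and the difference was 2.11 (SE 0.24, limma adjusted p = 0.00019). KRT8, by contrast, was lower in central retina, at levels under 1 in both regions (-0.55, SE 0.148, limma adjusted p = 0.0237). KRT80, which neighbours KRT7 in T2T-MFA8v1.1, and KRT83 had no group mean of 1 and were not tested. Singled out after their values were seen, KRT83 was at 0.94 to 1.01 in the central libraries and 0.10 to 0.18 in the peripheral ones, and KRT80 at 0.53 to 1.57 and 0.13 to 0.35. In a fit without the filter both were higher in central retina, by 0.81 (limma adjusted p = 0.00011) and 0.59 (limma adjusted p = 0.0341). EVPL was also called in that fit, so 7 genes rather than 4 were higher. KRT8, KRT80 and KRT83 share the start of their names, and whether their values were exchanged was not tested.

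S100A genes went both ways. S100A10 was at 38.8, 84.8, 39.9 and 63.6 in central and 22.5, 17.9 and 15.9 in peripheral retina, 3.02-fold in the means (1.48, SE 0.258, limma adjusted p = 0.00226), and S100A1 was lower in central retina (-0.70, SE 0.167, limma adjusted p = 0.0136). Neither overlapped between regions. These names share their start, the genes moved in opposite directions, and whether their values were exchanged was not tested. S100A4 fell by 1.02 (SE 0.154, limma adjusted p = 0.000952) from peripheral to central retina, 3.97-fold in the means at levels under 3, and S100A6 fell by 0.70 (SE 0.202, limma adjusted p = 0.0314). For both, every peripheral library was above every central one.

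Of the cadherins, CDH11 and CDH23 were lower in central retina and CDH7 and CDH12 higher. CDH11, a type II cadherin of mesenchymal and neural cells, was at 4.96, 4.69, 4.49 and 3.95 in central and 10.7, 8.92 and 10.7 in peripheral retina, a difference of -1.0 (SE 0.133, limma adjusted p = 0.000445). CDH23, a large cadherin of photoreceptors and of hair cell tip links, was at 3.50, 2.92, 4.12 and 2.19 against 10.6, 7.10 and 8.60 (-1.23, SE 0.173, limma adjusted p = 0.000632). Central and peripheral ranges were well apart for both genes. CDH12, a type II cadherin of brain, was at 11.1, 14.7, 12.3 and 16.8 against 8.73, 7.73 and 6.95 (0.73, SE 0.197, limma adjusted p = 0.0236). CDH7, another type II cadherin, was at 6.01, 5.85, 5.79 and 5.37 against 4.24, 4.30 and 4.42 (0.34, SE 0.095, limma adjusted p = 0.0262), with 3.90 and 4.00 in the whole eyes and 3.62 and 3.47 in the whole retinas. Spread within a group was small for CDH7, and no central library overlapped any other tissue.

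Claudins were lower in central retina in 4 of 10 tested genes and higher in 0 by limma's adjusted p (5 lower and 1 higher at an unadjusted p under 0.05). CLDN19, with the values given above, was lower by a difference of -1.18 (SE 0.16, limma adjusted p = 0.000531). CLDN10 was at 6.51 and 6.97 in the whole eyes, 5.19 and 10.3 in the whole retinas, 0.65, 1.85, 1.06 and 1.44 in central and 4.70, 2.30 and 3.71 in peripheral retina (central minus peripheral -1.02, SE 0.253, limma adjusted p = 0.0166). CLDN3 and CLDN4 were lower, with differences of -0.73 and -0.54, at levels under 2 in both regions. Their central and peripheral libraries did not overlap. DSP was the 1 desmosomal gene to pass, lower in central retina (-0.52, SE 0.141, limma adjusted p = 0.0244). Pigment epithelium markers were lower in central retina in 7 of 8 tested genes, with the sums given above, as were 4 of 5 astrocyte and Müller glia markers, which summed to 758.3 to 992.6 in the central libraries and 1131 to 1410 in the peripheral ones. Of 8 photoreceptor markers 3 were lower in central retina, CNGA1 (-0.94), PDE6A (-0.66) and SAG (-0.79), and 5 did not pass. The part of these markers in the differences was not tested.

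**Figure D5:**
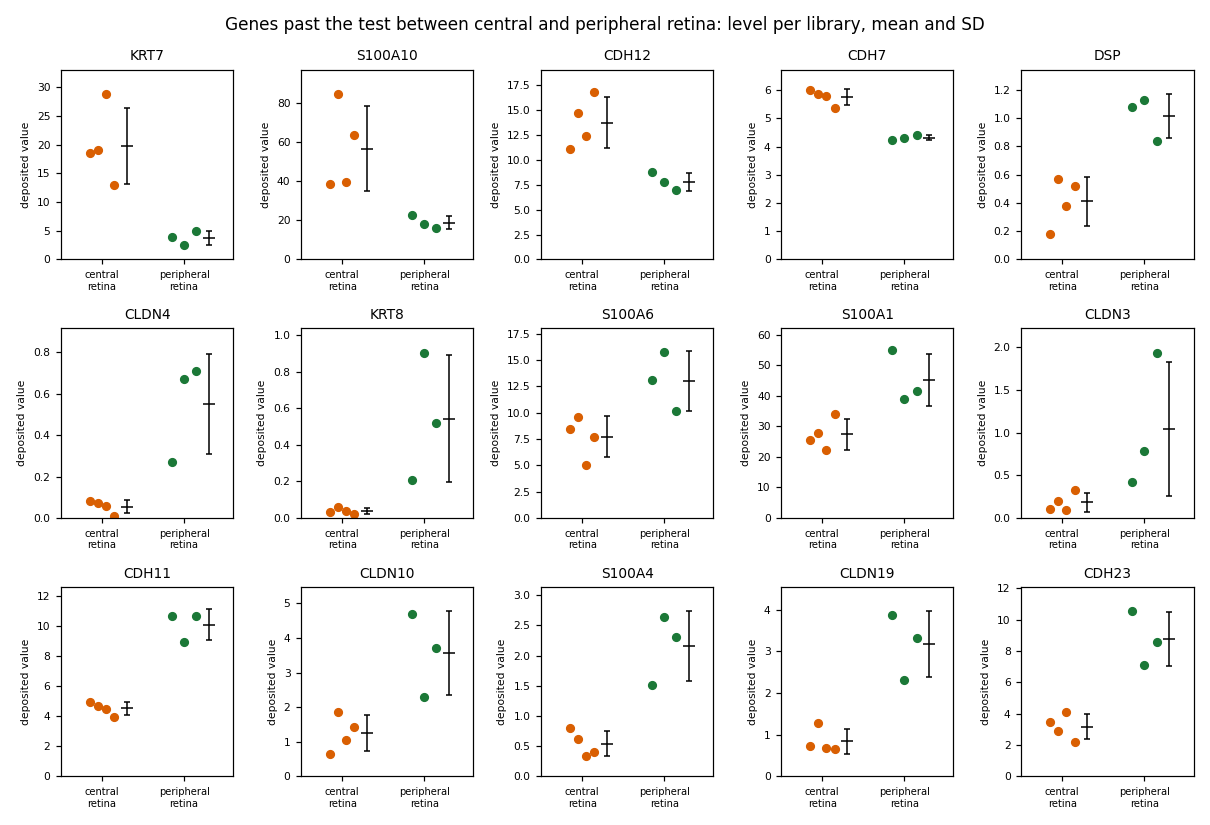
Deposited value (linear axis from 0, no unit stated) in each central and peripheral library of the 15 genes past the test between the regions, ordered from the largest positive to the largest negative difference; points are libraries, the black dash and bar are the mean and SD (n = 4 central, 3 peripheral). In every panel the central and peripheral libraries occupy separate ranges, and the level scale runs from under 1 for KRT8 and CLDN4 to over 80 for S100A10.

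Of these calls, 2 of the 4 higher and 4 of the 11 lower ones passed with any 1 library left out. They were KRT7 and S100A10, and CDH11, CDH23, CLDN19 and S100A4. The number of genes lower in central retina dropped from 11 to 6 without central retina 3 or without peripheral retina 2, and to 7 without central retina 1, central retina 4, peripheral retina 1 or peripheral retina 3. The number higher dropped from 4 to 2 without peripheral retina 2 or peripheral retina 3, when CDH7 and CDH12 no longer passed (highest limma adjusted p = 0.0949 and 0.0771). Without a library, the highest adjusted p was 0.116 for KRT8, 0.1 for DSP, 0.137 for CLDN4, 0.114 for CLDN3, 0.0719 for CLDN10, 0.0615 for S100A1 and 0.141 for S100A6. With quantile normalization CLDN3, CLDN4 and DSP did not pass, and with only the regional libraries in the fit CLDN4 and KRT8 did not.

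Partners of the same structures were read from lists outside the set. Between the whole tissues, 2.1% of all tested genes were lower in whole retina and 0.168% higher. Of 17 tested desmosome, adherens and tight junction partners, 2 were lower in whole retina than in whole eye and 0 higher by limma's adjusted p (2 lower and 1 higher at an unadjusted p under 0.05). They were PERP, a desmosomal membrane protein (39.61 and 50.59 against 2.16 and 4.18, difference -3.50, limma adjusted p = 2.15e-06), and F11R, the junctional adhesion molecule A (-1.10, limma adjusted p = 0.00336). PERP lay far above the retinal range in both eyes. Between the regions, 8.76% of all tested genes were lower in central retina and 12.5% higher. Among the partners 4 were lower and 0 higher by limma's adjusted p (9 lower and 1 higher at an unadjusted p under 0.05). These were the polarity gene PARD3, the plaque gene JUP, PERP and the polarity gene MPP5. JUP, plakoglobin, was at 4.39, 2.91, 4.02 and 3.27 in central and 6.45, 7.61 and 8.84 in peripheral retina (-0.90, limma adjusted p = 0.00243). Its regional values were under the 14.91 to 23.17 of both whole tissues. In the regional libraries 14 of the 17 partners were lower and 2 higher than in whole retina (28.4% and 15.8% of all tested genes). Against whole eye 13 were lower and 2 higher (32.5% and 18.2% of all tested genes). PARD3 shares its start with another name.

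Of the hemidesmosome and basement membrane anchors, the laminin chain genes LAMB3 (2.74 and 2.65 against 0.40 and 0.33, difference -1.44, limma adjusted p = 4.22e-05) and LAMA3 (1.62 and 1.45 against 0.61 and 0.46, difference -0.72, limma adjusted p = 0.0218) were lower in whole retina than in whole eye. Neither overlapped between the whole tissues. Between the regions, PLEC, the cytolinker plectin, was higher in central retina (30.06, 21.31, 27.64 and 28.36 against 13.42, 13.82 and 11.82, difference 0.98, limma adjusted p = 0.000885) and the integrin ITGA6 lower (-0.63, limma adjusted p = 0.00396). The central and peripheral libraries of both lay apart. Only 3 of the 8 cornified envelope and barrier genes found could be tested, and all 3 were lower in whole retina: SCEL (5.40 and 4.74 against 0.03 and 0.14), CSTA (2.75 and 5.24 against 0.81 and 0.55) and LOR (3.02 and 1.12 against 0.24 and 0). SCEL, sciellin, differed by -2.48 (limma adjusted p = 8.16e-07). These 3 genes, and LAMA3 and LAMB3, were above 1 in whole eye alone and entered the test through it. IVL, involucrin, was not tested: it was at 0.59 and 0.03 in the whole eyes and at 0 in every retinal library. TGM1, also not tested, was at 0.63 and 0.36 in the whole eyes, inside its range of 0.19 to 0.70 in the retinal libraries.

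Of 13 tested intermediate filament genes other than keratins, 2 were lower in whole retina than in whole eye, the lens filament genes BFSP1 (190.42 and 188.63 against 2.40 and 2.44) and BFSP2 (102.81 and 100.47 against 2.50 and 1.66). Between the regions 5 were higher in central retina and 1 lower, where 12.5% and 8.76% of all tested genes were. The neurofilament gene NEFM was at 218.58, 237.37, 221.72 and 390.8 in central and 57.66, 31.45 and 38.07 in peripheral retina (2.63, limma adjusted p = 7.76e-05), NEFL rose by 2.33 (limma adjusted p = 0.000133), and INA, alpha-internexin, by 1.05 (limma adjusted p = 0.000372). PRPH and SYNM were the other genes higher there. VIM, the filament gene of Müller glia and mesenchymal cells, was at 136.83, 155.24, 116.08 and 127.73 in central and 464.18, 398.98 and 510.27 in peripheral retina (-1.77, limma adjusted p = 5.89e-05). Central and peripheral libraries did not overlap for NEFM or VIM. INA, PRPH and VIM share the start of their names with another gene.

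Genes that were not tested or passed in few comparisons complete the set. CLDN1, CLDN8, CLDN9, CLDN17, CLDN24, KRT2B, KRT80 and KRT83 had no group mean of 1 and were not tested. CLDN1, a claudin of stratified epithelium, was at 0.24 and 0.17 in the whole eyes, 0.23 and 0.13 in the whole retinas, 0.23, 0.11, 0.01 and 0.04 in central and 0.03, 0 and 0 in peripheral retina, so its libraries overlapped across tissues. CLDN17 and CLDN24 were at most 0.06 in any library. In all, 9 tested genes passed in none of the comparisons between whole eye, whole retina and regional retina by limma: CDH8, CDH9, CDH12, CDH18, CDH23, CLDN12, CLDN22, KRT222 and S100A7. Of these, CDH12 and CDH23 passed between central and peripheral retina. CDH18 had group means of 4.04 to 5.33 and CLDN22 of 0.695 to 1.42.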

How the data were processed

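RNA sequencing values of 11 libraries were analysed: 2 of whole eye, 2 of whole retina, 4 of central and 3 of peripheral retina. Per the file headers, the deposited tables hold 1 signal value for each gene and library that the authors had normalized, by a method not stated. GSNAP, an aligner, and HTSeq, a read counter, are named without version in the submitters' processing notes, and the genome build is not given in the sources used here, nor is the annotation. Steps between low values gave the same ratio in only 19 to 26 of 96 genes, so depth is known at best relative to other libraries, and no counting interval is given. Genes at 0 numbered 171 to 226 in whole tissues and 313 to 501 in regional libraries.

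Of 13083 entries per table, 27 without a value and 61 exact duplicates were dropped, leaving 12995. The linear model of limma 3.58.1 (R 4.3.3) was fitted to log2(value + 1) over all libraries in 4 groups, with a variance trend, for the 11933 genes whose mean reached 1 in a group. All 11 libraries set 1 variance per gene. Tests are two-sided, and adjustment was by Benjamini and Hochberg within a comparison, with a threshold of 0.05. The model was tested on simulated data. Alternatives were a pseudocount of 0.1, no filter, quantile normalization, only the groups compared, the replicate number as a block, and each library left out in turn.

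The gene set, its role groups and the lists of marker and partner genes were chosen with earlier results of these data known. Values per library are given for 18 of 25 core genes that were in the tables and, per comparison and direction, for the 6 tested genes with the smallest adjusted p, no overlap of libraries and a higher group mean that reached 1; from each partner list up to 3 genes per direction are named. Part of the results on the anchor list is not reported here. Gene neighbours come from the RefSeq table of assembly T2T-MFA8v1.1, in which 50 of the 54 names match a symbol. Tables and plots were made with Python 3.11.15, numpy 2.4.6, pandas 2.3.3 and matplotlib 3.10.9.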

Additional observations from a re-analysis of the deposited data

Results flagged for a closer look

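In a check for single libraries far from the rest of their group, run on the 30 named genes in the 4 central retina libraries, 3 genes stood out, where chance flags about 1 in 20 groups. CLDN19 was at 1.28 in central retina 2 and at 0.67 to 0.74 in the other central libraries, still under the lowest peripheral value of 2.32. DSG1 and KRT14 were at 0.01 in central retina 4 and at 0 in the other central libraries. With the others tied at 0, any value above 0 stands out by construction, so these carry no information.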

How the results depend on the processing

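The number of genes higher in whole retina than in whole eye, 1 as reported, was 0 with a pseudocount of 0.1, with only the groups compared and with the replicate block. Without the filter on low values, central retina had 7 genes above peripheral retina (4 as reported) and 4 were higher in regional retina than in whole eye (2 as reported). With quantile normalization 6 were higher in regional retina than in whole eye and 9 higher than in whole retina (4 as reported), and CLDN7 and PKP1 turned from lower to differences of 0.03 and 0.05 against whole retina. The cause was not tested.

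With 1 library left out in turn, the counts of genes ran from 12 to 16 lower and 1 to 1 higher in whole retina against whole eye, 6 to 12 lower and 2 to 6 higher in central against peripheral retina, 30 to 33 lower and 1 to 2 higher in regional retina against whole eye, and 21 to 23 lower and 2 to 4 higher against whole retina. A group left with 1 library is assumed to vary like the others. For 75 results on named genes, 1196 alternatives gave 1116 on the same side of the threshold, 78 that no longer passed and 2 that turned.

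Whether replicate numbers pair the samples could not be told. Deviations of same-numbered central and peripheral libraries correlated at -0.138, -0.061 and 0.357. Differently numbered ones reached 0.363 (central retina 1 with peripheral retina 2) and 0.347 (central retina 2 with peripheral retina 1), and some were negative. Whole eye and whole retina, with 2 libraries each, give only mirrored values: 0.19 for same-numbered and -0.19 for differently numbered libraries. With the replicate block, 1 gene was higher in regional retina than in whole eye. The block left 12 of 15 lower calls in whole retina against whole eye (without CDH1, PPL and TJP3) and, in central against peripheral retina, 8 of 11 lower (without CLDN3, CLDN4 and KRT8) and 3 of 4 higher (without CDH12). Depth, unknown here, limits what can be said of genes at values near 0.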
